A study of Mus musculus with 20 samples.

Results

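Non-collagen genes of the extracellular matrix were followed in ventricular RNA of male mice 4 weeks after transverse aortic constriction (TAC), a surgical narrowing of the aortic arch that loads the left ventricle with pressure, or after sham surgery. A list of 38 genes was used, made of matricellular proteins, elastic fibre and microfibril proteins, crosslinking enzymes, and proteoglycans with their small leucine-rich relatives. Every probe annotated to one of these genes, by its present or an older symbol, was taken. This gave 91 probes for 35 genes, of 45281 probes and 19057 named genes on the Illumina bead arrays. No probe was listed for Loxl2, Spp1 and Fbn1, and these were not analysed here.

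The arrays held 6 TAC DKO, 6 TAC CTL, 4 sham DKO and 4 sham CTL hearts. DKO mice carried homozygous floxed alleles of both Dnmt3a and Dnmt3b, which encode the de novo DNA methyltransferases, together with Cre recombinase under the promoter of the atrial myosin light chain gene. CTL mice carried the same floxed alleles without Cre, and in all 4 groups surgery was done at 10 to 12 weeks and tissue was taken at 14 to 16 weeks of age. The Cre line recombines in cardiomyocytes from early heart development on, so the alleles of fibroblasts and vessel cells in the same tissue were not its target.

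The matrix of the heart is made largely by fibroblasts, with contributions from smooth muscle cells, endothelial cells and cardiomyocytes. Matricellular proteins such as thrombospondins, SPARC, tenascins and CCN proteins sit in the matrix and act mainly on cell adhesion and growth factor availability rather than as load-bearing fibres. Elastic fibres consist of an elastin core on a scaffold of fibrillin microfibrils, to which microfibril-associated proteins, fibulins and latent TGF-beta binding proteins attach. Lysyl oxidases crosslink elastin and collagen, and small leucine-rich proteoglycans bind collagen and shape its fibrils.

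Dnmt3a and Dnmt3b methylate the cytosine of CG dinucleotides, and the promoters of 4 genes that were higher after TAC in both genotypes and had a single RefSeq start listed are shown for their CG content. Each is the 250 bases before the start in GRCm38.p6, 5' to 3' on the strand of the gene, with every CG in capitals. The windows are chrX:73483351-73483600 on the plus strand for Bgn, chr6:91212514-91212763 on the plus strand for Fbln2, chr11:55420081-55420330 on the minus strand for Sparc and chr17:14694263-14694512 on the minus strand for Thbs2.
Bgn: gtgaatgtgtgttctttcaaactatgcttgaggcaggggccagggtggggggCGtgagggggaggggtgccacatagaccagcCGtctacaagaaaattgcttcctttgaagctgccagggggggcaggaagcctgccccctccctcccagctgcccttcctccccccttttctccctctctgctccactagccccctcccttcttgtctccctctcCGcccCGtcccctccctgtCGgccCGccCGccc
Fbln2: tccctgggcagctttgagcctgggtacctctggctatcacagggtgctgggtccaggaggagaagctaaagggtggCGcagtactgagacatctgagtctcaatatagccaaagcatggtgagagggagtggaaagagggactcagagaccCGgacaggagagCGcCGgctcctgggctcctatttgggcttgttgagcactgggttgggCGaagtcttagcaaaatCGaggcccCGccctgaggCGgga
Sparc: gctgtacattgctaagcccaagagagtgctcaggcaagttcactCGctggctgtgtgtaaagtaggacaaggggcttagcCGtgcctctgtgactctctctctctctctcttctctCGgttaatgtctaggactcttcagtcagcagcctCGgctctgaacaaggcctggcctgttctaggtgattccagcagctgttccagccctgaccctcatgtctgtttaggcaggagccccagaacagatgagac
Thbs2: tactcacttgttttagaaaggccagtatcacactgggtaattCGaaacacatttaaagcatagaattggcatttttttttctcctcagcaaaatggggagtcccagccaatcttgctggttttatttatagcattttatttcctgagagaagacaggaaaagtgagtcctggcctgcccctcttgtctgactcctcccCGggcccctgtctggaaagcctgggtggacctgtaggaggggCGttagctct
The windows hold 7 CG in Bgn, 8 in Fbln2, 4 in Sparc and 3 in Thbs2. Windows of 22 measured genes of the list (30 windows, some of them overlapping) held a median of 7 CG, against 6 in 32851 windows of 27025 genes. Short motifs were searched on both strands as a description of these letters. CAGAC, a SMAD-type motif, was present in 56.7% of the windows of the list and in 42.2% of all windows, TATAAA in 16.7% and 12.4%, GGAATG, a TEAD-type motif, in 10.0% and 12.6%, and TGANTCA, an AP-1-type motif, in 3.33% and 6.75%. No methylation values were used here.

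Values are normalized intensities of the brightest probe of a gene, and they compare arrays, not genes. A gene was called higher or lower at a Benjamini-Hochberg adjusted p under 0.05 over all probes and a fold over 1.5, in a limma fit of all 4 groups. The deposited medians were 47.5 on the 8 sham arrays and 58.6 on the 12 TAC arrays, and the sorted values were equal at a tolerance of 0.2% for 97.57 to 100% of probes within sham and 99.91 to 100% within TAC, but for 0.391 to 0.413% between the sets. The sets had thus been normalized apart, and an effect of TAC and one of the array set cannot be told apart in any comparison of TAC with sham. The genotype comparisons lie within 1 set each. Probes of Dnmt3a were dim in all groups (means of 40.7 to 50.6), and the brighter of 2 Dnmt3b probes averaged 110 in TAC DKO and 105 in TAC CTL hearts, 101 in sham DKO and 112 in sham CTL hearts. The place of these probes relative to the floxed exons is not known here, so they check nothing about the labels.

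About as many genes of the list were called higher after TAC as were not called, and none was called lower, on the brightest probes. In DKO hearts 17 of 35 genes were called higher and 0 lower, where 3.99% of all genes were called higher and 5.17% lower. In CTL hearts the counts were likewise 17 higher and 0 lower, against 2.74% and 4.2% of all genes. The median log2 fold change over the 35 genes was 0.58 in DKO and 0.59 in CTL hearts, with 0.04 and 0.03 over all genes. All TAC arrays lay above all sham arrays of the same genotype for 18 genes in DKO and 15 in CTL hearts (15.7% and 11.6% of all genes), and 0 lay wholly below them (10.5% and 9.14% of all genes). The same 15 genes were called in both genotypes, Tnxb and Eln in DKO only, and Ltbp3 and Fmod in CTL only. The difference between the genotypes in the TAC effect was tested separately and was not called for any gene of the list. In bulk tissue, more cells of a type and more RNA per cell cannot be told apart.

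By role, 7 of 13 matricellular genes were called higher in DKO and 6 in CTL hearts. Of 12 elastic fibre and microfibril genes, 6 were called in each genotype. Of 3 crosslinking enzymes, 2 were called in each. Of 7 proteoglycans and small leucine-rich proteins, 2 were called in DKO and 3 in CTL hearts.

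**Figure D1:**
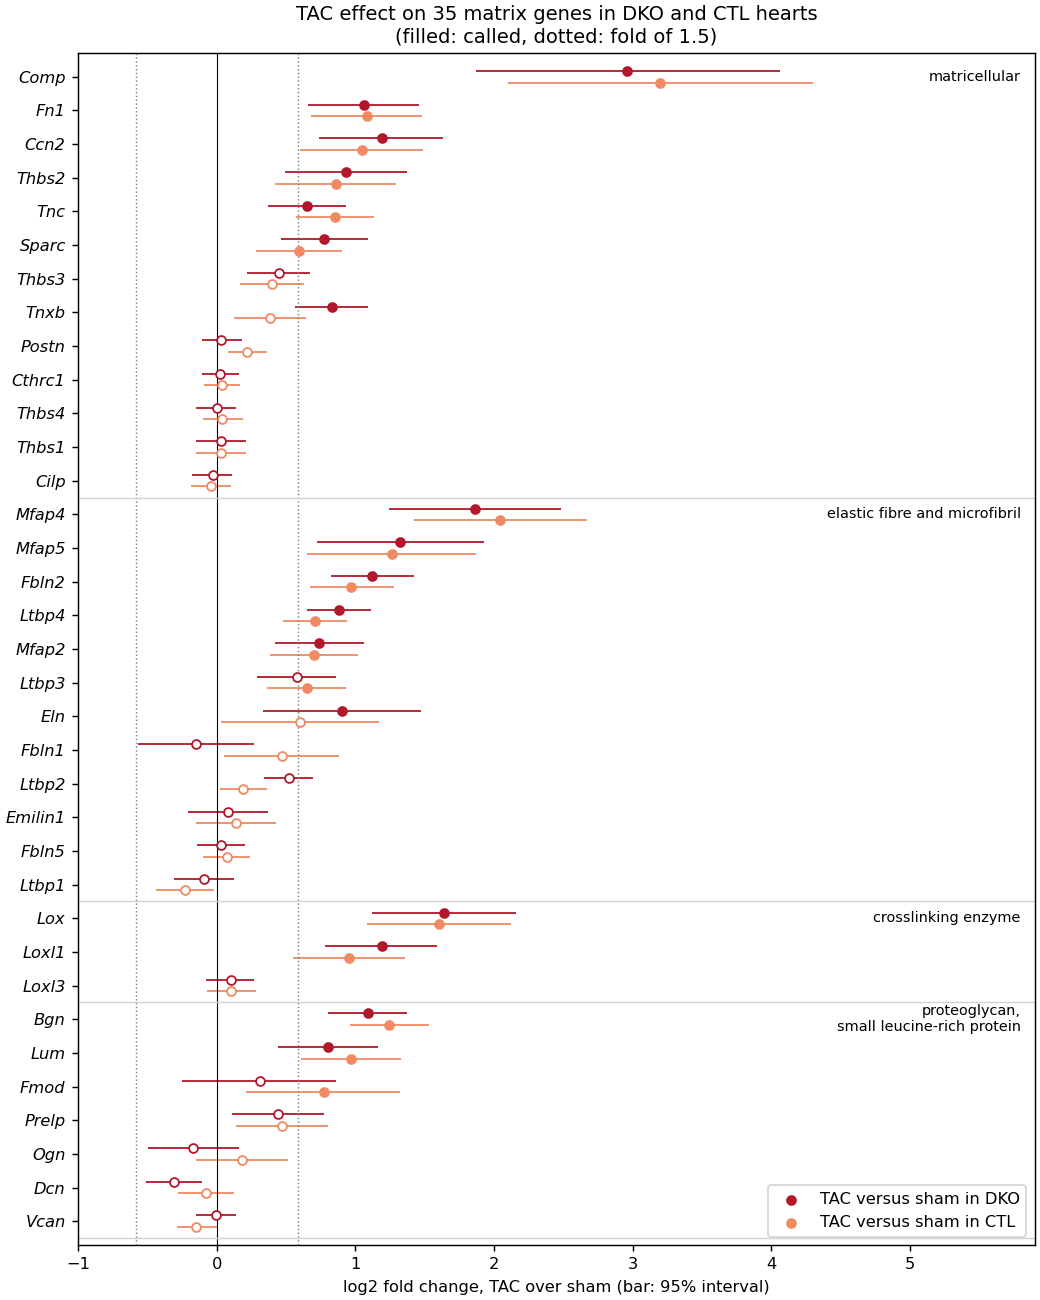
The log2 fold change of TAC over sham is drawn on the horizontal axis for each of the 35 genes, in DKO hearts (dark red, upper) and CTL hearts (orange, lower), with 95% intervals from the limma fit of all groups and filled points for called genes. Comp lies farthest to the right, at 2.96 in DKO and 3.20 in CTL hearts, and no gene is called on the left.

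These counts depend on how the 2 array sets are put on a common scale. With each array centred on its median, 9 genes were called higher in DKO and 7 in CTL hearts, and Comp, Mfap4, Lox, Fn1 and Bgn were the 5 called in both. Over all probes this centring left 4.67% of the calls on the higher side in DKO and 4.61% in CTL hearts, where the quantile normalization used here left 36.6% and 34.1%. With a constant of 11.1 added to the sham arrays to bring the medians together, chosen after the data were seen, 14 genes were called in DKO and 12 in CTL hearts, 11 of them in both, and 13.9% and 12.5% of all calls were on the higher side.

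Summed marker intensities of some cell types differed between TAC and sham arrays, while others overlapped. Fibroblast markers (12 of 12 measured) summed to 9230 to 13300 on TAC DKO and 6860 to 14000 on TAC CTL arrays, against 5760 to 6630 on sham DKO and 5270 to 5560 on sham CTL arrays. In this list 4 genes (33.3%) were called higher and 2 (16.7%) lower in DKO, and 2 higher and 2 lower (16.7% each) in CTL hearts. Of all genes 3.99% were called higher and 5.17% lower in DKO, and 2.74% and 4.2% in CTL hearts. Ddr2 and S100a4 were dim throughout. The median log2 deviation of the fibroblast markers from their means over 20 arrays overlapped in CTL hearts. It was -0.23 to 0.36 on TAC CTL and -0.15 to -0.01 on sham CTL arrays, against 0.03 to 0.21 on TAC DKO and -0.36 to -0.14 on sham DKO arrays. Smooth muscle and pericyte markers (10 of 10) summed to 8070 to 15300 and 8280 to 14000 on TAC DKO and TAC CTL arrays, against 5830 to 8060 and 8350 to 10500 on sham DKO and sham CTL arrays, with 6 called higher in DKO and 2 in CTL hearts. Cardiomyocyte markers (11 of 12) summed to 155000 to 176000 and 165000 to 184000, against 192000 to 198000 and 192000 to 202000. Red blood cell genes (6 of 7) summed to 70400 to 79600 and 61200 to 74800, against 36600 to 64800 and 24600 to 47100. Endothelial markers (11 of 11) summed to 9900 to 12200 and 9800 to 11700, against 8920 to 11200 and 11200 to 12900. Macrophage and leukocyte markers (11 of 13) summed to 1980 to 2850 and 2060 to 3330, against 2880 to 3130 and 2090 to 3190. Epicardial and mesothelial markers (6 of 7) had dim means, but for Upk3b in TAC DKO hearts. Of 9 tendon, cartilage and valve markers 7 were dim in every group, and 2 were called higher in each genotype. These calls are 22.2% of the list, against 3.99% of all genes in DKO and 2.74% in CTL hearts. The 9 summed to 917 to 1430 and 747 to 1360, against 690 to 793 and 663 to 824. The part of these cells in the results was not tested.

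Among the matricellular genes, Comp, cartilage oligomeric matrix protein, which binds collagen and is known from cartilage and tendon, had the largest change of the list. On TAC DKO arrays its intensity had a lowest value of 251, a median of 947 and a highest of 1500, and on TAC CTL arrays 122, 854 and 1510. The sham DKO arrays read 81.4, 91.8, 105 and 92.4 and the sham CTL arrays 67.9, 67.5, 65.0 and 64.8. No TAC array reached down to a sham array, but the TAC arrays themselves spanned 5.99-fold in DKO and 12.4-fold in CTL hearts. The log2 fold change was 2.96 (95% interval 1.87 to 4.06, adjusted p = 0.000148) in DKO and 3.20 (2.10 to 4.30, adjusted p = 8.44e-05) in CTL hearts, and the second is understated because the sham CTL mean of 66.3 is dim, that is under 80.8, or 1.5 times the median of all probes.

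Fn1, fibronectin, the adhesive glycoprotein on which other matrix is laid down, had a lowest, median and highest intensity of 148, 190 and 259 in TAC DKO and 128, 193 and 279 in TAC CTL hearts. Sham DKO arrays gave 106, 87.6, 106 and 75.7 and sham CTL arrays 97.6, 106, 92.4 and 69.0, all below the TAC arrays. The log2 fold changes were 1.06 in DKO (adjusted p = 0.000185) and 1.08 in CTL hearts (adjusted p = 0.000201).

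Ccn2, connective tissue growth factor, a matricellular protein induced by TGF-beta and stretch, ran over 4160, 5300 and 10200 in TAC DKO and 3930, 6080 and 7000 in TAC CTL hearts. It had 2590, 2930, 2940 and 1810 in sham DKO and 3760, 3250, 2880 and 1810 in sham CTL hearts. The groups did not overlap, although the lowest TAC CTL array came close to the highest sham CTL array. It was higher on the log2 scale by 1.19 in DKO (adjusted p = 0.000165) and 1.05 in CTL hearts (adjusted p = 0.000842).

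Among Thbs1, Thbs2, Thbs3 and Thbs4, only Thbs2, an inhibitor of angiogenesis that also shapes collagen fibrils, was called. It had 228, 328 and 613 in TAC DKO and 239, 323 and 489 in TAC CTL hearts, against 211, 175, 196 and 145 in sham DKO and 204, 189, 181 and 168 in sham CTL hearts. All 12 TAC arrays stood above the sham arrays. This gave a log2 fold change of 0.93 in DKO (adjusted p = 0.00173) and 0.86 in CTL hearts (adjusted p = 0.00442). Thbs3 passed the adjusted p but not the fold, with 0.45 in DKO (adjusted p = 0.00335) and 0.40 in CTL hearts (adjusted p = 0.00968). Thbs1, which activates latent TGF-beta, and Thbs4 were dim in all groups, with means of 50.9 to 53.5 and of 47.1 to 50.2.

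Tnc, tenascin C, an anti-adhesive glycoprotein of remodelling tissue, had 76.1, 100 and 116 in TAC DKO and 74.9, 109 and 127 in TAC CTL hearts. The sham arrays were dim, with 58.7, 61.8, 64.6 and 57.1 in DKO and 52.1, 66.5, 57.5 and 48.9 in CTL hearts, and lay below every TAC array. The log2 fold changes of 0.65 in DKO (adjusted p = 0.000723) and 0.85 in CTL hearts (adjusted p = 5.33e-05) are therefore understated. Without TAC DKO arrays 2 and 3, left out for the median deviation of their atrial markers, the DKO value was 0.56 and no longer called.

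Tnxb, tenascin X, which is associated with collagen spacing, was called in DKO only on its brightest probe. It had 485, 575 and 643 in TAC DKO and 390, 499 and 660 in TAC CTL hearts, against 338, 360, 318 and 263 in sham DKO and 410, 354, 309 and 465 in sham CTL hearts. The DKO groups were apart and the CTL groups overlapped. TAC over sham was 0.83 in DKO on the log2 scale (adjusted p = 2.39e-05) and 0.38 in CTL hearts (adjusted p = 0.0332, fold under 1.5), and the CTL value turned to -0.10 under median centring. The second Tnxb probe by brightness averaged 398 in TAC DKO and 335 in TAC CTL hearts, against 198 in sham DKO and 213 in sham CTL hearts, and was called higher in both genotypes (1.01, adjusted p = 9.29e-07 in DKO and 0.65, adjusted p = 0.000282 in CTL), with no overlap of arrays. The third was at 0.30 and 0.03 and not called.

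Sparc, an acidic collagen-binding protein, had 2200, 2680 and 3510 in TAC DKO and 1980, 3180 and 3810 in TAC CTL hearts. Sham DKO arrays gave 1520, 1530, 1730 and 1650 and sham CTL arrays 1740, 2180, 1940 and 1760. The DKO groups did not overlap, while in CTL the highest sham array lay within the range of the TAC arrays. On the log2 scale TAC exceeded sham by 0.77 in DKO (adjusted p = 0.00036) and 0.59 in CTL hearts (adjusted p = 0.0058), the CTL value lying at the edge of the fold threshold. The CTL call was lost without sham CTL array 1 or 4 or TAC CTL array 1, 3, 4 or 5, at 0.50 to 0.56.

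Postn, periostin, a marker of activated fibroblasts, was dim on all 3 of its probes. Its brightest probe averaged 48.4 in TAC DKO and 52.8 in TAC CTL hearts, 47.3 in sham DKO and 45.3 in sham CTL hearts, and it passed the adjusted p but not the fold in CTL hearts (0.22, adjusted p = 0.0236), with 0.03 in DKO hearts (adjusted p = 0.763). At this brightness a change could be missed. Cthrc1 and Cilp, both known from fibroblasts of injured hearts, were dim in every group too, with means of 47.7 to 49.2 and of 45.7 to 47.9.

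**Figure D2:**
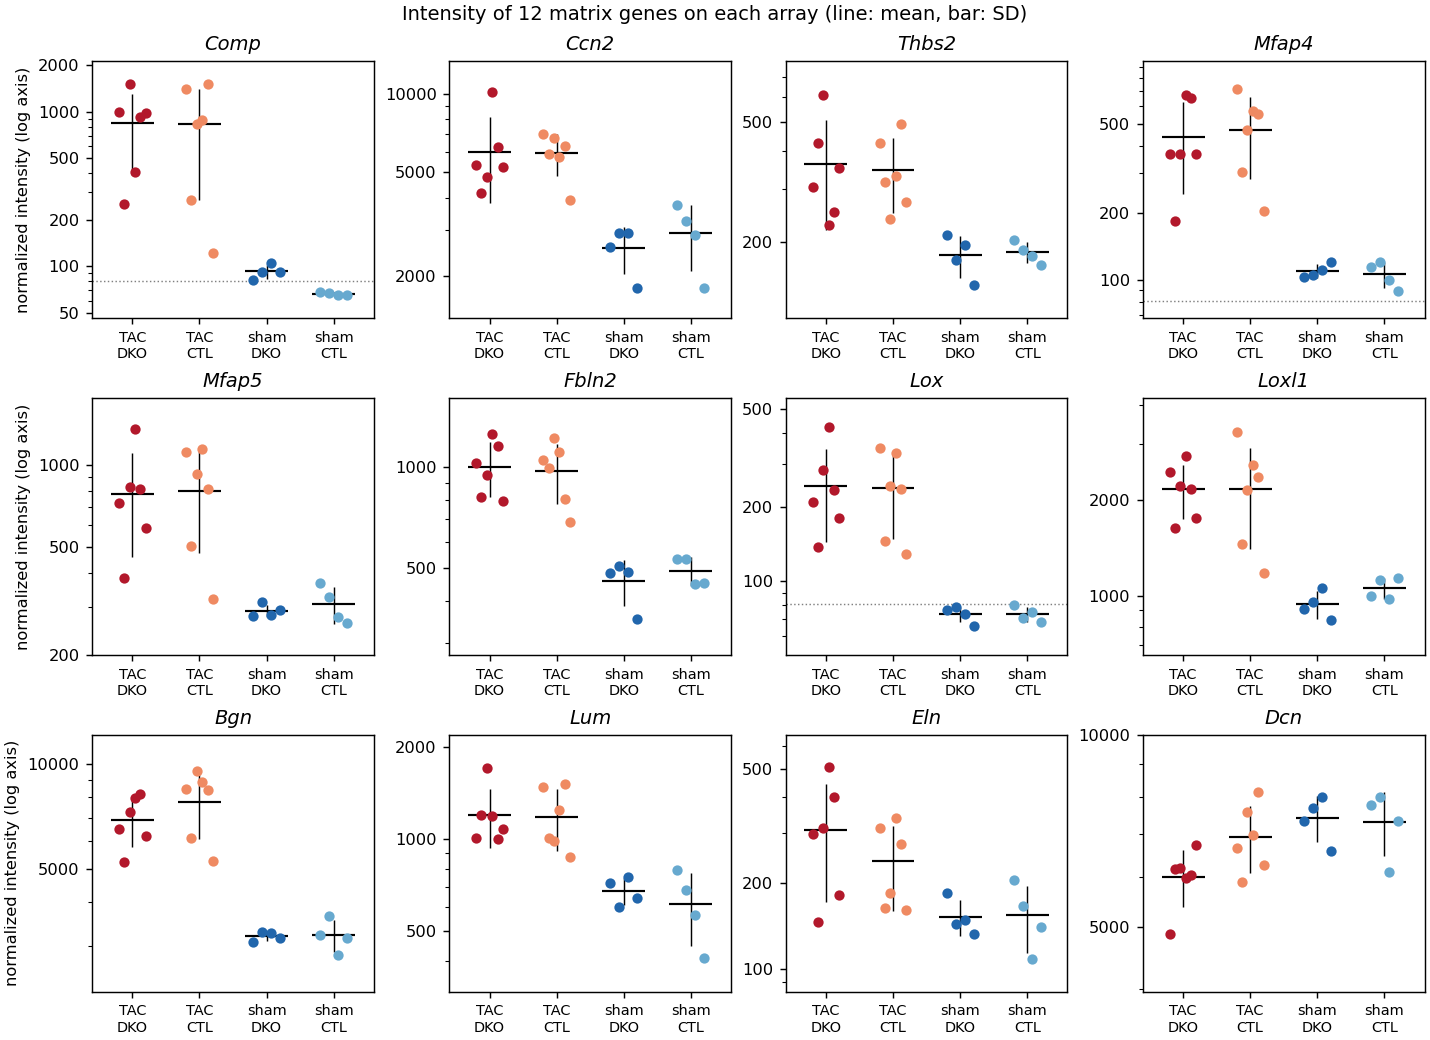
Each point is the normalized intensity of a gene on 1 array, on a logarithmic axis, for TAC DKO, TAC CTL, sham DKO and sham CTL hearts, with the mean (line) and SD (bar) and, where in range, a dotted line at 80.8, below which a mean counts as dim. The TAC arrays of Comp and Mfap4 are spread widely above the sham arrays, those of Bgn and Fbln2 lie in a narrower band above them, and those of Dcn do not.

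Among the microfibril genes, Mfap4, a protein that binds elastin and microfibrils, had 183, 367 and 676 in TAC DKO and 203, 513 and 717 in TAC CTL hearts. Sham DKO arrays gave 103, 105, 111 and 121 and sham CTL arrays 115, 120, 99.7 and 89.9. The groups were clearly apart, with log2 fold changes of 1.86 in DKO (95% interval 1.24 to 2.48, adjusted p = 4.69e-05) and 2.04 in CTL hearts (1.42 to 2.67, adjusted p = 2.1e-05).

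Mfap5, a microfibril-associated glycoprotein, had 384, 768 and 1350 in TAC DKO and 322, 869 and 1140 in TAC CTL hearts, against 278, 312, 280 and 293 in sham DKO and 366, 327, 276 and 263 in sham CTL hearts. Only TAC CTL array 6 fell among the sham arrays. In log2 units the change was 1.32 in DKO (adjusted p = 0.00134) and 1.26 in CTL hearts (adjusted p = 0.00266). Mfap2, the other microfibril-associated glycoprotein, had 105, 123 and 211 in TAC DKO and 114, 132 and 171 in TAC CTL hearts, against 73.9, 74.6, 84.7 and 79.1 in sham DKO and 79.9, 78.1, 73.7 and 104 in sham CTL hearts. Its TAC arrays stood above the sham arrays by a small margin. The log2 fold changes were 0.74 (adjusted p = 0.00075) and 0.70 (adjusted p = 0.00162) in DKO and CTL hearts, the first understated by a dim sham mean and no longer called, at 0.55, without TAC DKO arrays 2 and 3.

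Eln, elastin itself, the core of the elastic fibre, had 146, 304 and 509 in TAC DKO and 161, 230 and 337 in TAC CTL hearts, against 184, 144, 148 and 133 in sham DKO and 204, 166, 108 and 140 in sham CTL hearts. TAC and sham arrays overlapped in both genotypes. Its log2 fold change was 0.90 in DKO (95% interval 0.33 to 1.47, adjusted p = 0.017) and 0.60 in CTL hearts (0.03 to 1.17, adjusted p = 0.132). The DKO call was lost without sham DKO array 4 (0.84, adjusted p = 0.0505).

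Of the fibulins, Fbln2, which bridges elastic fibres and basement membranes, had 794, 987 and 1260 in TAC DKO and 689, 1020 and 1220 in TAC CTL hearts. The sham arrays gave 486, 507, 489 and 353 in DKO and 532, 533, 448 and 453 in CTL hearts and did not reach the TAC arrays. The log2 fold changes were 1.12 in DKO (adjusted p = 3.36e-06) and 0.97 in CTL hearts (adjusted p = 2.84e-05). Fbln1 was not called, with -0.15 in DKO and 0.47 in CTL hearts (adjusted p = 0.64 and 0.108), and Fbln5, which brings elastin onto microfibrils, was dim in all groups (44.7 to 48.3). Emilin1, which sits between elastin and microfibrils, differed by 0.08 in DKO and 0.14 in CTL hearts (adjusted p = 0.737 and 0.548).

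The latent TGF-beta binding proteins did not move alike. Ltbp4 had 2320, 2690 and 2870 in TAC DKO and 2110, 2480 and 3400 in TAC CTL hearts, against 1660, 1520, 1480 and 1100 in sham DKO and 1730, 1590, 1510 and 1420 in sham CTL hearts. All TAC arrays were higher, with log2 fold changes of 0.88 in DKO (adjusted p = 2.08e-06) and 0.71 in CTL hearts (adjusted p = 4.75e-05). Of its 3 probes that were not dim only this brightest 1 was called. The lowest value among the 3 was -0.02 in DKO and 0.22 in CTL hearts. Ltbp3 had 363, 422 and 528 in TAC DKO and 332, 462 and 608 in TAC CTL hearts, against 322, 283, 313 and 254 in sham DKO and 308, 271, 233 and 317 in sham CTL hearts. Its TAC and sham arrays were apart in both genotypes, and the values of 0.58 (adjusted p = 0.00277) in DKO and 0.65 (adjusted p = 0.00126) in CTL hearts fell on either side of the fold threshold. The CTL call was lost without sham CTL array 3 (0.56) or TAC CTL array 1 (0.55), and the DKO value was called when any of sham DKO array 1 or 3 or TAC DKO array 1, 2 or 4 was left out (0.59 to 0.63). Ltbp2 was dim in every group, and its 0.52 in DKO (adjusted p = 4.39e-05) and 0.19 in CTL hearts (adjusted p = 0.107) were under the fold. Ltbp1 differed by -0.09 and -0.23 in DKO and CTL hearts (adjusted p = 0.533 and 0.109).

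Lox, lysyl oxidase, the enzyme that starts collagen and elastin crosslinks, had 138, 222 and 421 in TAC DKO and 129, 240 and 347 in TAC CTL hearts. The sham arrays were dim, with 76.2, 78.4, 73.8 and 66.1 in DKO and 79.9, 70.8, 75.3 and 68.5 in CTL hearts. No TAC array overlapped them. The log2 fold changes of 1.64 in DKO (95% interval 1.12 to 2.16, adjusted p = 2.46e-05) and 1.60 in CTL hearts (1.08 to 2.12, adjusted p = 4.58e-05) are understated. Loxl1, the family member tied most closely to elastin, had 1640, 2200 and 2750 in TAC DKO and 1180, 2260 and 3270 in TAC CTL hearts, against 909, 955, 1060 and 837 in sham DKO and 1000, 1120, 980 and 1140 in sham CTL hearts. Its groups were apart too, at 1.19 in DKO (adjusted p = 5.85e-05) and 0.95 in CTL hearts (adjusted p = 0.000843). Loxl3 was dim in all groups, with means of 45.7 to 49.0.

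Bgn, biglycan, a collagen-binding proteoglycan that also signals to immune cells, rose with the smallest adjusted p of the list in CTL hearts. It had 5230, 6890 and 8170 in TAC DKO and 5270, 8420 and 9500 in TAC CTL hearts, against 3080, 3300, 3280 and 3170 in sham DKO and 3230, 3670, 2830 and 3170 in sham CTL hearts. It changed by a log2 fold of 1.09 in DKO (95% interval 0.80 to 1.37, adjusted p = 2.12e-06) and 1.24 in CTL hearts (0.96 to 1.53, adjusted p = 5.11e-07), with every TAC array above every sham array. Lum, lumican, which regulates fibril thickness, had 999, 1140 and 1710 in TAC DKO and 874, 1130 and 1520 in TAC CTL hearts, against 719, 600, 751 and 643 in sham DKO and 793, 684, 563 and 408 in sham CTL hearts. These groups were also apart, at 0.80 in DKO (adjusted p = 0.00105) and 0.97 in CTL hearts (adjusted p = 0.000207).

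Fmod, fibromodulin, a collagen-binding relative of lumican, had 48.4, 65.7 and 127 in TAC DKO and 53.5, 90.4 and 181 in TAC CTL hearts. The sham arrays were dim, at 51.8, 57.6, 54.0 and 63.8 in DKO and 53.9, 62.2, 51.9 and 58.4 in CTL hearts, and overlapped the TAC arrays in both genotypes. In log2 units TAC over sham was 0.31 in DKO (adjusted p = 0.427) and 0.77 in CTL hearts (adjusted p = 0.0426). The CTL call was lost, at an adjusted p of 0.051 to 0.103, when any single sham CTL array, sham DKO array 2 or 3, or TAC CTL array 1, 4 or 5 was left out.

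The remaining genes of this group, Dcn, Prelp, Ogn and Vcan, were not called in either genotype on their brightest probes. Dcn, decorin, which binds collagen and TGF-beta, averaged 5990 ± 609 in TAC DKO and 6920 ± 832 in TAC CTL hearts (SD, n = 6 each), and 7410 ± 605 in sham DKO and 7300 ± 836 in sham CTL hearts (SD, n = 4 each). It differed by -0.31 in DKO (adjusted p = 0.0178, fold under 1.5) and -0.08 in CTL hearts, which did not pass the test, and under median centring its DKO value was -0.78 and called lower. Prelp, which anchors basement membranes to collagen, was at 0.44 in DKO and 0.47 in CTL hearts (adjusted p = 0.0399 and 0.0349, folds under 1.5). Its DKO value turned to -0.02 under median centring, and its CTL value was called, at 0.60, without TAC CTL array 6. Ogn, osteoglycin, was at -0.17 and 0.18 (adjusted p = 0.468 and 0.478). Vcan, versican, a large proteoglycan of provisional matrix, was dim in all groups (58.2 to 64.2). Dcn and Lum are neighbours on chromosome 10, and Prelp and Fmod on chromosome 1, and in each pair 1 gene was called, Lum in both genotypes and Fmod in CTL hearts, and the other was not.

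Where a gene had several probes that were not dim, these did not always move together. Of 11 such genes, 6 had the same sign on all probes and 5 had mixed signs, in each genotype. On Ogn, a pair of dimmer probes averaged 74.2 and 74.2 in TAC DKO and 85.9 and 89.0 in TAC CTL hearts, against 179 and 164 in sham DKO and 188 and 169 in sham CTL hearts, and both were called lower (-1.28 and -1.13 in DKO, -1.15 and -0.92 in CTL), while the brightest probe was not called. On Fbln1, the fourth probe by brightness was called higher in CTL hearts (0.65, adjusted p = 0.00683) and the fifth lower in both genotypes (-0.71 in DKO and -0.74 in CTL). A second Dcn probe was called lower in DKO hearts (-0.66, adjusted p = 0.00618). The second probes of Lum (-0.46 in DKO and -0.10 in CTL) and Fbln2 (-0.08 and -0.07) did not share the rise of the brightest probe. On Sparc, the second probe was at 0.58 in DKO and 0.24 in CTL hearts and the third at -1.23 and -0.61, with means of 119 in TAC DKO and 111 in TAC CTL hearts against 306 in sham DKO and 212 in sham CTL hearts, and neither was called in either genotype (adjusted p = 0.0455 and 0.465 for the second, 0.0523 and 0.401 for the third). Which transcripts these probes reach was not tested.

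**Figure D3:**
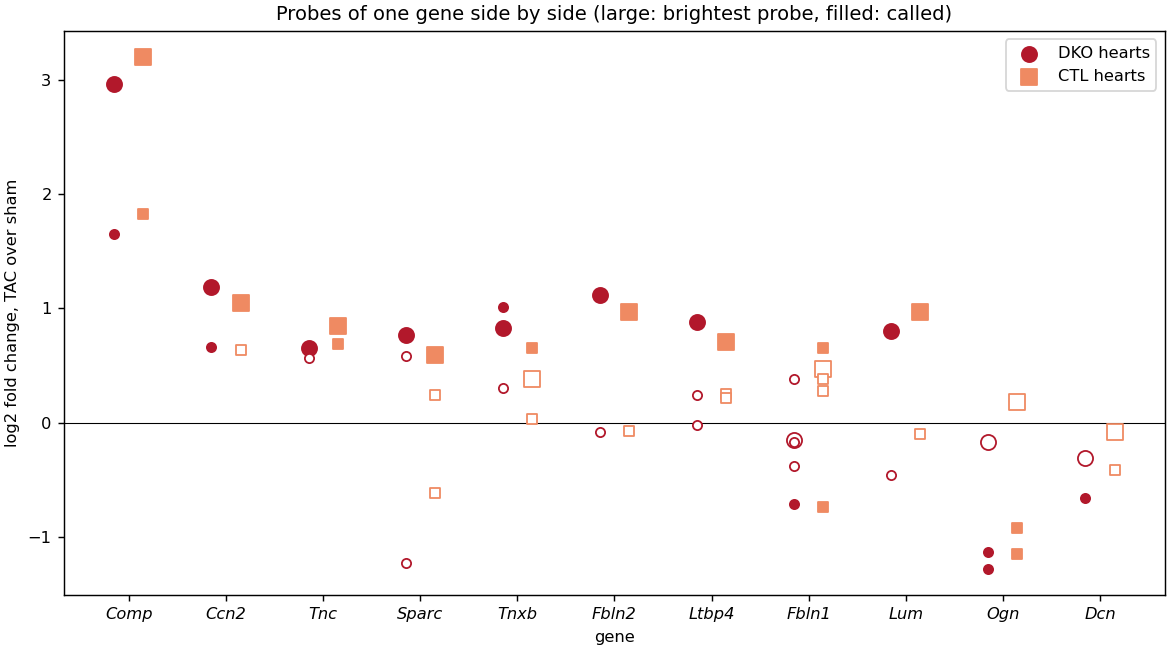
The log2 fold change of TAC over sham is shown for every probe that was not dim in all groups, for the 11 genes with more than 1 such probe, in DKO hearts (circles) and CTL hearts (squares). Large symbols are the brightest probe and filled symbols are called. The probes of Fbln1 lie on both sides of 0 in both genotypes, and those of Ogn in CTL hearts only.

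Within the TAC groups many of the called genes varied together from heart to heart. TAC CTL array 6 was the lowest of its group for 16 of the 19 genes called in either genotype and among the 2 lowest for 18, and TAC CTL array 2 was among the 2 lowest for 12. In TAC DKO hearts array 2 was the lowest for 11. The median deviation of the 19 genes from their mean over 20 arrays was 0.01 to 0.59 on TAC DKO arrays and -0.15 to 0.70 on TAC CTL arrays, against -0.80 to -0.49 on sham DKO and -0.68 to -0.44 on sham CTL arrays. On TAC CTL array 6 the fibroblast markers summed to 6860, the lowest of the TAC arrays, and the atrial markers, which include the load-responsive natriuretic peptide gene Nppa, to 9160, where the other TAC CTL arrays had 24600 to 33100. By the median log2 deviation of the atrial markers, array 6 was at -0.41, within the -0.66 to 0.45 of the other TAC CTL arrays. Without this array 19 genes were called higher in CTL hearts, and without TAC CTL array 1 there were 14. By the median log2 deviation of the atrial markers, TAC DKO arrays 2 and 3 were above all other arrays (0.70 and 1.72), but by their summed intensity array 3 was the highest and array 2 the lowest of the TAC DKO arrays (36400 and 26200). Leaving out both, a choice made after the data were seen, left 16 genes called in DKO hearts. The part of these markers in the spread was not tested.

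Over the 12 TAC arrays, as deviations from the group means, the pairwise correlation of the 19 genes had a median of 0.54, with 84.2% of pairs above 0, and that of the 870 genes called higher in either genotype had a median of 0.24 and 71.1%. These arrays share their normalization, and the values are a description. Lox and Mfap5 were the closest pair (r = 0.97). Mfap5 was also the closest gene to Mfap4 (0.93), Sparc (0.94), Bgn (0.93) and Loxl1 (0.92). Lum and Mfap2 (0.93) and Comp and Fmod (0.88) were close pairs as well. Tnxb ran against the rest, with a median r of -0.39, and Thbs2 shared little with the others (0.06). Mfap2, Ltbp4, Fbln2 and Ccn2 had a median r of 0.32 to 0.39, and the lowest r of any pair was -0.65.

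**Figure D4:**
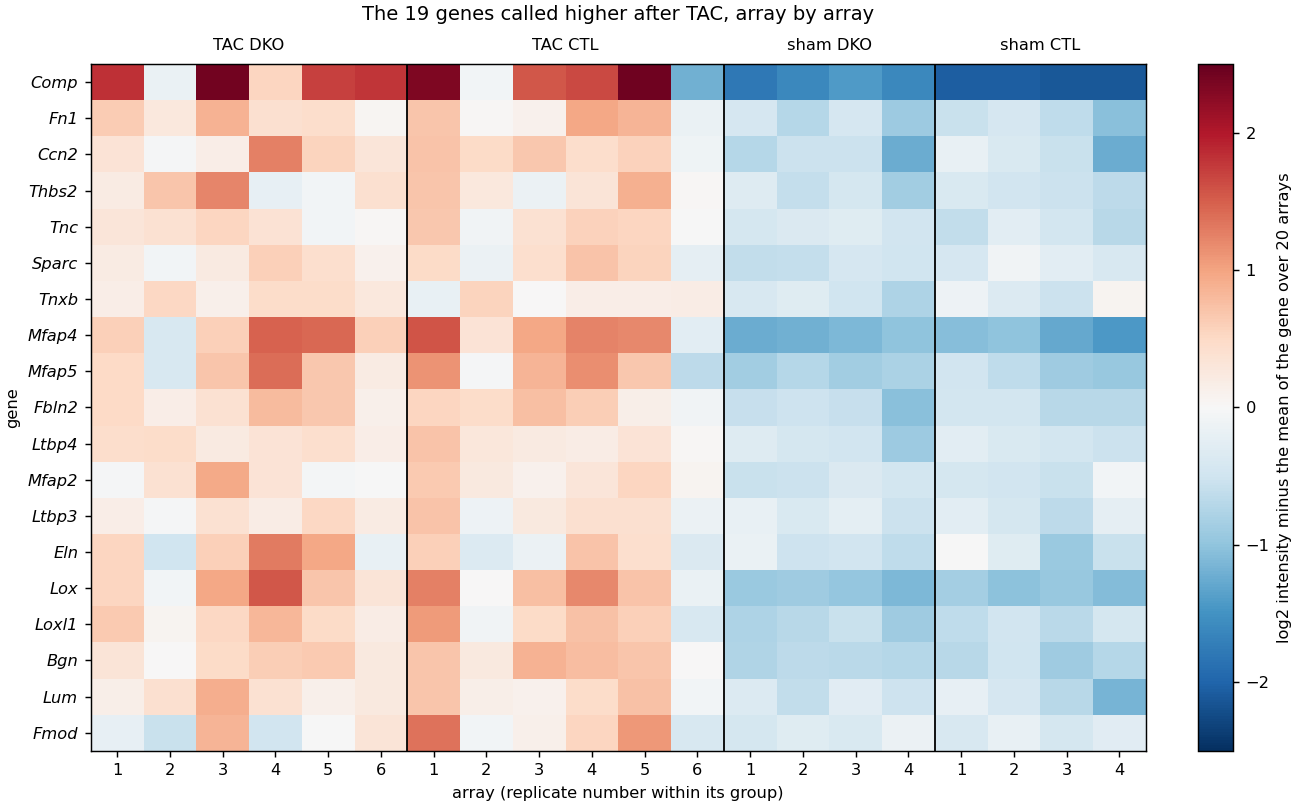
Each column is 1 array and each row 1 of the 19 genes called higher after TAC in either genotype, coloured by the log2 intensity minus the mean of the gene over 20 arrays (the scale ends at -2.5 and 2.5). TAC DKO array 2 and TAC CTL array 6 have the lowest median deviations of their groups, 0.01 and -0.15.

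Genotype made no called difference in the list. After TAC, 0 genes were called higher or lower in DKO over CTL hearts, where 0.22% of all genes were called higher and 0.021% lower. In sham hearts, 0 were called, with 0.152% and 0.021% of all genes. After TAC no gene of the list had all DKO arrays on one side of all CTL arrays (0.551% of all genes on the higher and 0.257% on the lower side). For the interaction of genotype and surgery, 0 were called, with 0.0% higher and 0.00525% lower among all genes. At an unadjusted p under 0.05 there was 1 gene after TAC, 1 in sham hearts and 3 for the interaction, of 35, by limma. Over all 19057 genes the same counts were 2211, 1317 and 1021. Of the 26 genes not dim in every group, 22 had a 95% interval within 1.5-fold in both directions after TAC, the exceptions being Comp, Mfap4, Eln and Fmod, and 18 had one in sham hearts. These intervals use 1 spread shared by all 4 groups, although several genes varied more on TAC than on sham arrays. Mfap5 spanned 3.51-fold in TAC DKO and 3.53-fold in TAC CTL hearts, against 1.12-fold in sham DKO and 1.39-fold in sham CTL hearts. For such genes the intervals can be too narrow after TAC, so they bound the genotype difference there only loosely. For Comp the log2 difference was 0.24 (-0.74 to 1.22) after TAC and 0.48 (-0.73 to 1.68) in sham hearts.

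**Figure D5:**
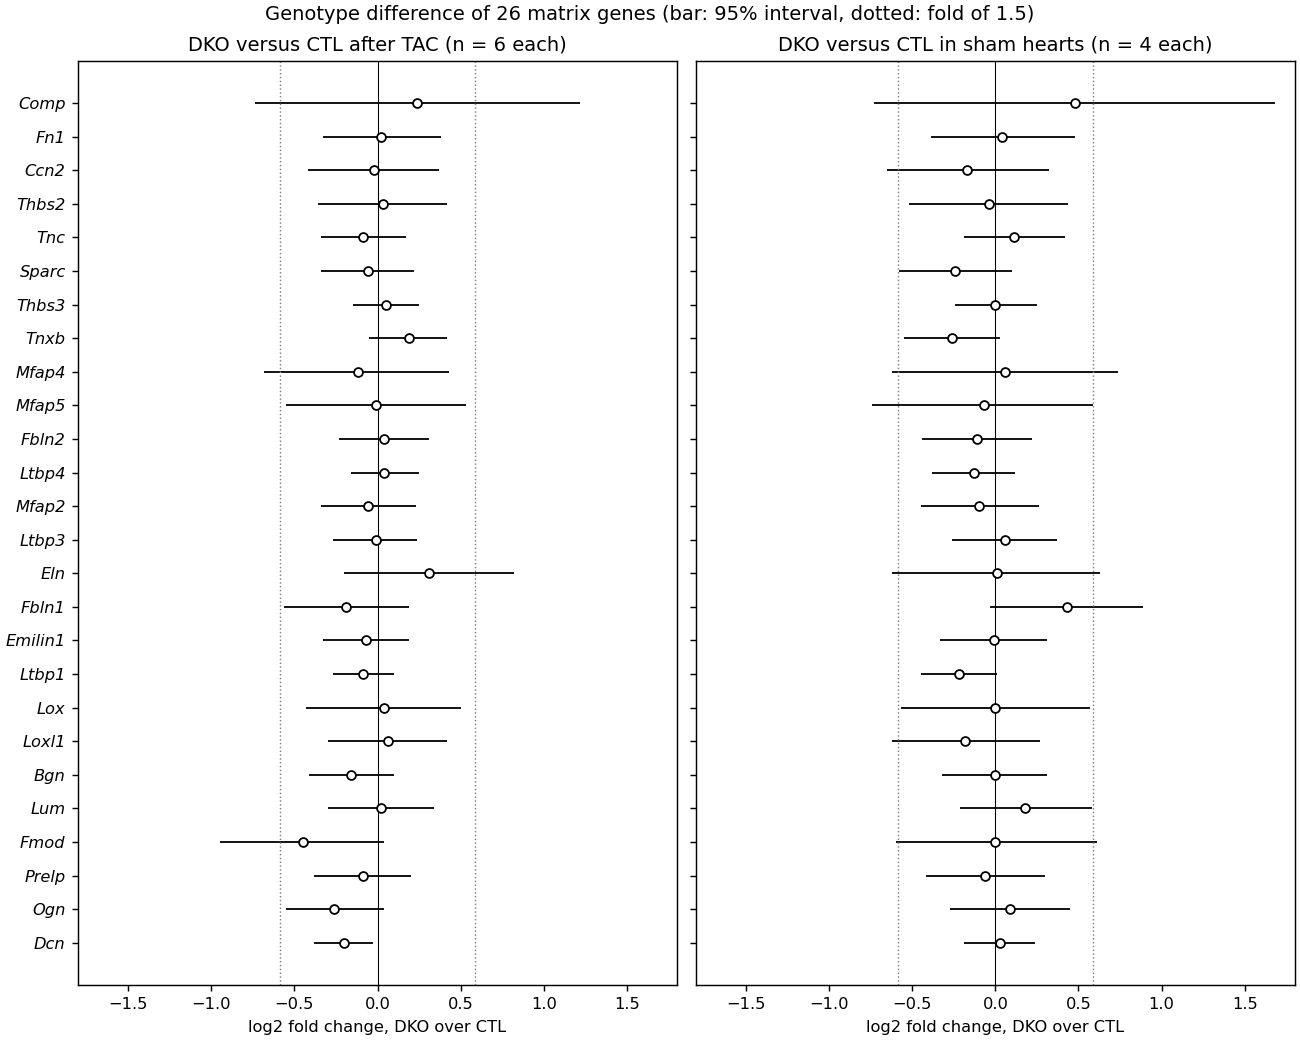
Log2 fold changes of DKO over CTL with 95% intervals are drawn for the 26 genes not dim in every group, after TAC (left, n = 6 each) and in sham hearts (right, n = 4 each), with dotted lines at a fold of 1.5. No gene is called, and the interval of Comp is the widest in both panels.

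The few genes past an unadjusted 0.05 were these. Dcn after TAC read 4880, 6100 and 6720 (lowest, median, highest) in TAC DKO and 5890, 6820 and 8140 in TAC CTL hearts, a log2 difference of -0.20 (95% interval -0.38 to -0.03, adjusted p = 0.476), with overlapping arrays. Ltbp2, dim in every group, was lower in sham DKO than in sham CTL hearts by a log2 difference of -0.21 (adjusted p = 0.856), and its TAC effect was larger in DKO by 0.32 (adjusted p = 0.939). The TAC effect of Tnxb was larger in DKO by 0.45 (95% interval 0.08 to 0.82, adjusted p = 0.939), and that of Fbln1 was smaller, at -0.61 (-1.21 to -0.02, adjusted p = 0.939). None of these passed the correction. The separate calls of Tnxb, Eln, Ltbp3 and Fmod in 1 genotype are therefore not shown to differ between the genotypes, the interaction being 0.30 for Eln (adjusted p = 0.956), -0.07 for Ltbp3 (adjusted p = 0.979) and -0.46 for Fmod (adjusted p = 0.94).

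In sham hearts the arrays of 2 genes did not overlap between the genotypes, 1 of 35 on the higher and 1 on the lower side, a share near the 2.16% and 2.76% of all genes that were apart in these directions. Both were picked out after their values were seen. All 4 sham DKO arrays of Comp, at 81.4 to 105, were above the 4 sham CTL arrays, at 64.8 to 67.9, which are dim. All 4 sham DKO arrays of Sparc, at 1520 to 1730, were below the sham CTL arrays, at 1740 to 2180. In a limma fit of the sham arrays alone, the wide spread of the TAC arrays does not enter. In that fit the brightest Comp probe had an adjusted p of 0.0381 at a log2 difference of 0.48, a fold of 1.39 and so not a call. The brightest Sparc probe had 0.745 at -0.24. Dimmer probes of both genes did not share the separation. The dimmer Comp probe read 63.9 to 67.3 in sham DKO and 55.5 to 65.6 in sham CTL hearts. Its log2 difference was 0.10 in the fit of all 4 groups, but it was dim in both sham groups, where a difference could be missed. The dimmer Sparc probes also overlapped, at -0.10 and 0.76 in that fit of all groups.

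Other matrix genes were taken from lists beside the 38 genes. Of 68 measured among 74 further glycoproteins, proteoglycans and crosslinkers, 7 were called higher and 4 lower in DKO, and 7 and 4 in CTL hearts. This is 10.3% higher and 5.88% lower in each genotype, the share called lower being near the 5.17% (DKO) and 4.2% (CTL) of all genes. Ccn5, a matricellular relative of Ccn2, averaged 343 ± 189 in TAC DKO and 469 ± 92.2 in TAC CTL hearts, against 64.7 ± 9.27 and 72.2 ± 7.59 in sham DKO and sham CTL hearts (SD), at 2.17 and 2.68 in DKO and CTL. Svep1, a large cell adhesion protein of the matrix, was at 1.70 and 1.86. In contrast Ccn1, of the same family as Ccn2, averaged 115 ± 31.0 and 118 ± 18.1 in TAC DKO and TAC CTL hearts, against 350 ± 77.5 and 390 ± 75.5 in sham DKO and sham CTL hearts, at -1.62 and -1.72 in DKO and CTL, both called lower. Sparcl1, the nearest relative of Sparc, averaged 131 ± 17.1 and 143 ± 28.1, against 397 ± 48.3 and 453 ± 18.7, at -1.60 and -1.68. Thus Ccn2 was called higher in the hearts in which Ccn1 was called lower. Sparc on its brightest probe was called higher where Sparcl1 was called lower, but its other probes were not called and its call in CTL hearts was marginal.

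For the next 3 lists the shares of all genes are 3.99% higher and 5.17% lower in DKO, and 2.74% and 4.2% in CTL hearts. Of 11 measured laminin and nidogen genes among 13, 1 was called higher and 1 lower in DKO (9.09% each), and 0 and 1 in CTL hearts. Lamb1, a laminin chain, was lower (-0.82 in DKO and -0.86 in CTL). Nid2, which links laminin to collagen IV, was called higher in DKO hearts (0.69, adjusted p = 7.78e-07). In CTL hearts Nid2 was at 0.44 and turned to -0.02 under median centring. Its DKO call was lost on the values as deposited (0.54), under median centring (0.23) and with a constant added to sham arrays (0.46). Of 18 TGF-beta pathway genes among 21, only the ligand Tgfb3 was called, at 0.92 in DKO (adjusted p = 0.000238) and 0.91 in CTL hearts (adjusted p = 0.000352). This single call is 5.56% of the list, not far above the share of all genes. Of 25 matrix receptors among 26, 1 was called higher and 4 lower in DKO, and 1 and 3 in CTL hearts. The share called higher, 4.0% in each genotype, is near that of all genes, and the shares called lower were 16.0% and 12.0%. The receptor called higher was Itga11, a collagen-binding integrin chain, at 0.66 in DKO and 0.61 in CTL hearts. Dag1, dystroglycan, which ties laminin to the cardiomyocyte, averaged 792 ± 111 in TAC CTL hearts, against 2070 ± 359 in sham CTL hearts (SD), and fell by 1.32 in DKO and 1.38 in CTL hearts on the log2 scale. Cd36, a thrombospondin receptor and fatty acid transporter, was at -1.07 and -0.81, Itga6, a laminin-binding integrin chain, at -0.73 and -0.71, and Itgb5, a vitronectin-binding integrin chain, at -0.69 in DKO and -0.53 in CTL hearts, the last under the fold. None of these 4 lists held a gene called for genotype or for the interaction. Among the atrial markers, Stard10 was called higher in DKO than in CTL hearts, at 0.91 after TAC (adjusted p = 0.0048) and 1.12 in sham hearts (adjusted p = 0.00878).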

How the data were processed

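Illumina bead arrays of ventricular RNA from 20 mice were used, and groups and replicate numbers were taken from the sample labels. The deposited table holds linear intensities that the authors made in GenomeStudio 2010.3, as the submitters' processing notes say. How background and scale were set is not stated in the paper or labels used here, and the sorted values show a quantile normalization of sham and TAC arrays apart. Of the probes, 34885 had 1 gene listed, 18 several and 10378 none, and a gene was represented by its brightest probe. Intensities were log2 transformed with no constant added, quantile normalized over 20 arrays and fitted with limma 3.58.1 in R 4.3.3 (1 mean per group, 16 residual and 6.64 prior degrees of freedom), with Benjamini-Hochberg adjustment over 45281 probes. Calls needed an adjusted p under 0.05 and a fold over 1.5. Means and SD are of linear normalized intensities. The fit was tested on simulated data.

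The genes and lists were chosen with earlier results of these data known. Values per array are given for every listed gene called after TAC in either genotype, and genes past an unadjusted p of 0.05 for genotype or interaction are named, with up to 4 called genes of each other list. Precision is limited by the number of arrays. Alternatives were other scalings, an added constant of 16, a filter on dim probes, each comparison alone, a replicate block, array weights, any probe of a gene, no fold threshold and each array left out. Same-numbered arrays did not deviate together throughout, so the numbers were not used as pairs. Promoter windows are from RefSeq (GRCm38.p6). The highest correlation between 2 arrays was 0.997, and 0 pairs were identical.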

Additional observations from a re-analysis of the deposited data

Results flagged for a closer look

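Over 35 genes and 4 groups, 6 of 140 groups (4.29%) held 1 array far from the others of its group by Dixon's criterion, and chance alone is expected to flag about 1 in 20. Thbs3 read 62.4 on sham CTL array 4, below 71.5 to 72.9 on the other sham CTL arrays. Fbln1 read 936 on sham CTL array 3, below 1330 to 1400. Fbln2 read 353 on sham DKO array 4, below 486 to 507. Dcn read 4880 on TAC DKO array 1, below 5970 to 6720. Lum read 1710 on TAC DKO array 3, above 999 to 1200. Ccn2 read 3930 on TAC CTL array 6, below 5740 to 7000, and this is the array with the lowest intensity for most of the genes called after TAC. No cause of these values was tested.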

How the results depend on the processing

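Scaling mattered most. With median centring the genes called higher after TAC numbered 9 in DKO and 7 in CTL hearts and those called lower 3 and 1, against 17 and 0 in each genotype; Tnxb in CTL hearts turned to -0.10, Prelp in DKO to -0.02 and Nid2 in CTL to -0.02. As deposited, the median of all probes shifted by 0.29 in DKO and 0.28 in CTL hearts, against 0.02 and 0.01 after quantile normalization. Counting a gene as called by any of its probes gave 3 lower in DKO and 2 in CTL hearts, and dropping the fold threshold 1 lower in DKO. Leaving out each array in turn gave 16 to 18 genes higher in DKO and 14 to 19 in CTL hearts, and 0 lower, 0 for genotype and 0 for the interaction. The other alternatives gave 14 to 21 higher in DKO and 12 to 21 in CTL hearts. With the replicate block 17 genes were called higher in DKO and 18 in CTL hearts, where Eln gained a call at 0.60, and it changed no other count; deviations of same-numbered arrays correlated between -0.186 and 0.38. Causes were not tested. Dim probes limit what can be seen of 9 genes, among them Postn.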
